A study of Mus musculus with 18 samples.

Results

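The genes Opn3, Mdfi, Garnl3, Strip2, Tmem255a and Fgf7 were followed in RNA from mouse cerebellum across 2 genotypes and 3 ages. They are 6 of the 22783 genes in the expression table and were chosen by their measured FPKM, as genes with large decreases in transgenic cerebellum at all or most ages while not being standard Purkinje cell markers. The genotype contrast therefore chose them, and their genotype differences are given below as a description without a test. Both groups were FVB mice labelled Cck-/-, which lack both copies of the gene for the neuropeptide cholecystokinin. The transgenic group carried in addition ATXN1[30Q]D776, a transgene whose product, ataxin-1, is the protein mutated in the disease SCA1 and here has an aspartate in place of a serine that is normally phosphorylated. As background, this transgene is driven by the Purkinje cell regulatory region of Pcp2, so that it acts in the output neurons of the cerebellar cortex. Cerebella were taken at postnatal weeks 5, 12 and 28, with 3 libraries per genotype and age and 18 in all. A group of animals with an intact Cck gene and no transgene was not analysed here, so every comparison is between animals labelled as lacking Cck.

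The members belong to unrelated families. Opn3 encodes an opsin, a receptor of the light-sensitive family that is made in brain. Mdfi encodes an inhibitor that binds MyoD-family basic helix-loop-helix (bHLH) transcription factors and components of Wnt signalling. Garnl3 encodes a protein with a GTPase-activating domain of the Rap type, the kind that switches off small G proteins. Strip2 encodes a subunit of the striatin-interacting phosphatase and kinase (STRIPAK) complex, which joins a phosphatase to kinases and scaffold proteins. Tmem255a encodes a multi-pass membrane protein. Fgf7 encodes a secreted fibroblast growth factor that signals through a splice form of the receptor Fgfr2 and is known in hippocampus for the organisation of inhibitory synapses. In the models of this disease, ataxin-1 acts in the nucleus together with the repressor Capicua and other transcription factors, and Purkinje cell transcripts fall before cells are lost.

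Levels are FPKM, a read density corrected for transcript length and library size, which permits comparison between genes per unit of length. The sums per library ran from 389248 to 441509 FPKM. Read counts are not given, and the smallest steps between low values put the depths of the libraries, relative to Cck-/- week 5 replicate 1, at 0.798 to 1.85. Differences are on the log2(FPKM + 1) scale, which understates changes of low genes, and their standard errors (SE) come from limma, with 1 spread per gene shared by the 6 groups. Of 13487 genes that reached an FPKM of 1 in at least 3 libraries, all 6 members were tested. Separate animals are not named in the labels for the libraries of a group, so p-values measure only the spread between these libraries. Of the Purkinje cell list, 30 of 30 genes were detected and tested, Pcp2 at 751 FPKM in Cck-/- cerebellum at week 5. Cck itself stood at 20.8 FPKM in Cck-/- and 98.1 FPKM in transgenic libraries at week 5 although both are labelled Cck-/-. Some libraries stood apart. Transgenic week 5 replicates 1 and 2 and transgenic week 28 replicate 3 were low in choroid plexus genes, with mean log2 levels of 1.05, 0.887 and 1.16 over 12 genes. Transgenic week 5 replicate 1, week 12 replicate 2 and week 28 replicate 1 held both Xist and Y-linked transcripts at an FPKM of at least 1. Without the first set, the differences of the 6 members ranged from -2.40 to -1.04 at week 5 and from -2.22 to -1.17 at week 28. Without the second set they ranged from -2.32 to -1.22, -1.71 to -1.02 and -2.18 to -1.27 at weeks 5, 12 and 28.

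The sequences before the start sites of Opn3, Mdfi and Fgf7 are shown because Opn3 and Fgf7 had the deepest decreases at week 5 and week 28 and because Mdfi encodes a partner of factors that bind E-boxes. All 6 members matched RefSeq promoters of build GRCm38.p6, with 8 windows in all, each running from 250 bases before a start site to 50 after it. The 250 bases before the RefSeq start are printed 5′ to 3′ on the gene's own strand. Capitals mark the E-box CANNTG and, in Fgf7, also the nuclear receptor motif AGGTCA. The Opn3 sequence lies at chr1:175692633-175692882 on the minus strand, the upstream one of the 2 Mdfi windows at chr17:47834692-47834941 on the minus strand and the Fgf7 sequence at chr2:126034408-126034657 on the plus strand. By GENCODE M21, Opn3 reaches 175692776, so part of its printed stretch lies inside the gene in that annotation. The whole Opn3 stretch lies within the span of Chml, which reaches 175692901.
Opn3: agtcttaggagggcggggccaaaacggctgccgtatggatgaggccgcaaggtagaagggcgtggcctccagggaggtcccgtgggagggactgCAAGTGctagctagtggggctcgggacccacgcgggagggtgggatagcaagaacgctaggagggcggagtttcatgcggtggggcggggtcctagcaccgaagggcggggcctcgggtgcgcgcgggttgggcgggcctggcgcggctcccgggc
Mdfi: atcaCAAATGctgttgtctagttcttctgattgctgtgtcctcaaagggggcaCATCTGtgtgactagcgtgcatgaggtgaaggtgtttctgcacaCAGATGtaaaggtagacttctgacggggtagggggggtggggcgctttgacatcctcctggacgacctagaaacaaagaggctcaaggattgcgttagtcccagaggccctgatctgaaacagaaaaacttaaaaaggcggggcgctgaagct
Fgf7: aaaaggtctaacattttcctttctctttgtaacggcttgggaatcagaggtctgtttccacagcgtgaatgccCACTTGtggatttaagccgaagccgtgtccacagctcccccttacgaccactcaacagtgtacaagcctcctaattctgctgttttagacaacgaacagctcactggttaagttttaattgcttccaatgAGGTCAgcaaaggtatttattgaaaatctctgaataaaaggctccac
Over the full windows, GC content was 70.0% in Opn3, 52.7% and 70.0% in the Mdfi pair, 62.7% and 68.7% in the Garnl3 pair, 62.0% in Strip2, 64.0% in Tmem255a and 45.7% in Fgf7. The median over 32851 RefSeq promoters was 52.7%, so Fgf7 was the member below it. Both strands were searched for 4 motifs, none of which contains another as spelled. The octamers TGAATGAA and TGAATGGA, which Capicua binds, were in none of the 8 windows, and 1.30% and 1.21% of all promoters hold them. AGGTCA had 1 match, in Fgf7, and 16.3% of all promoters hold it. The E-box was in 5 of the 8 windows against 72.3% of all promoters, with 4 matches in the upstream Mdfi window, of which the last lies after the start, and 1 each in Opn3, Strip2, Tmem255a and Fgf7. A match is a description of letters and not of binding. For Garnl3, the locus in the table ends at 33087204 on chromosome 2, short of both RefSeq windows, so these may not be the starts of the transcripts that were measured.

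Opn3 (chr1:175662421-175692776, minus strand, GENCODE M21 on GRCm38) had the lowest share of its Cck-/- level among the members at week 5. In Cck-/- cerebellum it was at 13.6, 11 and 13.8 FPKM at week 5, 10.6, 10.2 and 10.1 FPKM at week 12, and 6.69, 7.19 and 7.28 FPKM at week 28. In transgenic cerebellum it was at 2.96, 1.90 and 1.61 FPKM at week 5, 1.76, 1.92 and 3.29 FPKM at week 12, and 1.72, 1.71 and 1.49 FPKM at week 28. No transgenic library reached the lowest Cck-/- library of its age, and the narrowest gap was 3.06-fold, at week 12. The transgenic mean was 16.9%, 22.6% and 23.2% of the Cck-/- mean at the 3 ages, with log2 differences of -2.14, -1.79 and -1.61 (SE 0.15 each). The level in Cck-/- cerebellum fell with age, from 12.8 ± 1.53 to 7.05 ± 0.31 FPKM (SD, n = 3 each) between weeks 5 and 28, which is a log2 change of -0.77 ± 0.15 (SE, limma adjusted p = 0.00151). The 3 week 28 libraries were all below the 3 week 5 libraries. In transgenic cerebellum the change over the same interval was -0.24 ± 0.15 (limma adjusted p = 0.243), and the libraries overlapped.

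Mdfi (chr17:47815328-47834691, minus strand) was the other member whose Cck-/- level fell with age. Its Cck-/- libraries held 16.4, 15.5 and 12.9 FPKM at week 5, 11.4, 10.4 and 10.1 FPKM at week 12, and 10.9, 8.08 and 8.25 FPKM at week 28. Its transgenic libraries held 4.41, 3.68 and 3.74 FPKM at week 5, 3.44, 3.61 and 3.96 FPKM at week 12, and 2.77, 2.54 and 2.48 FPKM at week 28. The 9 transgenic values were below the lowest Cck-/- value of any age. The transgenic mean was 26.3%, 34.5% and 28.6% of the Cck-/- mean, with log2 differences of -1.69, -1.32 and -1.48 (SE 0.10 each). Mdfi fell by 0.67 on the log2 scale between weeks 5 and 28 in Cck-/- cerebellum (limma adjusted p = 0.000209) and by 0.46 in transgenic cerebellum (adjusted p = 0.00331). In Cck-/- libraries a decrease was called between weeks 5 and 12, at -0.45 ± 0.10 (limma adjusted p = 0.0101). It was not called without Cck-/- week 5 replicate 1, at an adjusted p of 0.0515. From week 12 to 28 the Cck-/- change was -0.22 ± 0.10, not called (limma adjusted p = 0.194). In transgenic libraries a decrease was called between weeks 12 and 28, at -0.37 ± 0.10 (limma adjusted p = 0.0168). It was not called without transgenic week 12 replicate 3, at an adjusted p of 0.0694. From week 5 to 12 the transgenic change was -0.08 ± 0.10, not called (limma adjusted p = 0.789). Without the 3 libraries low in choroid plexus genes, neither transgenic decrease was called, with adjusted p of 0.0503 from week 12 and 0.117 from week 5. That the intervals differ between genotypes was not tested.

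Garnl3 (chr2:32986224-33131654, minus strand) had the highest level of the 6 per unit of length in the mean of every group. Its Cck-/- libraries held 55.0, 57.1 and 58.8 FPKM at week 5, 61.9, 59.4 and 58.6 FPKM at week 12, and 48.9, 59.3 and 60.9 FPKM at week 28. Its transgenic libraries held 25.8, 14.3 and 12.9 FPKM at week 5, 17.3, 20.5 and 31.7 FPKM at week 12, and 12.8, 14.9 and 15.4 FPKM at week 28. Cck-/- libraries were tight at weeks 5 and 12, whereas transgenic week 5 replicate 1 and week 12 replicate 3 stood above their groups. The transgenic mean was 31.0%, 38.7% and 25.5% of the Cck-/- mean, with log2 differences of -1.70, -1.38 and -1.90 (SE 0.21 each). No change with age was called in Cck-/- cerebellum. In transgenic cerebellum Garnl3 fell between weeks 12 and 28, by 0.61 ± 0.21 on the log2 scale (SE, limma adjusted p = 0.0471). Without transgenic week 12 replicate 3 that change was -0.37 with an adjusted p of 0.221.

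Strip2 (chr6:29917012-29959681, plus strand) was nearly level in Cck-/- cerebellum and lowest at week 28 in transgenic cerebellum. Its Cck-/- libraries held 38.3, 38.0 and 41.0 FPKM at week 5, 47.7, 39.4 and 37.9 FPKM at week 12, and 39.0, 41.7 and 44.9 FPKM at week 28. Its transgenic libraries held 19.1, 14.2 and 18.5 FPKM at week 5, 18.3, 15.3 and 21.8 FPKM at week 12, and 12.9, 12.1 and 12.5 FPKM at week 28. The 3 week 28 transgenic libraries were below the 6 younger transgenic libraries. The transgenic mean was 44.1% and 44.3% of the Cck-/- mean at weeks 5 and 12 and 29.9% at week 28, with log2 differences of -1.15, -1.14 and -1.66 (SE 0.12 each). Within transgenic cerebellum Strip2 fell by 0.51 on the log2 scale from week 12 to 28 (limma adjusted p = 0.00752) and by 0.42 from week 5 to 28 (adjusted p = 0.0124). The latter was not called without transgenic week 5 replicate 1, at an adjusted p of 0.0597.

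Tmem255a (chrX:38196573-38252439, minus strand) was the member with no called change with age in either genotype. Its Cck-/- libraries held 26.2, 25.5 and 26.4 FPKM at week 5, 32.6, 28.8 and 26.1 FPKM at week 12, and 29.7, 27.5 and 27.1 FPKM at week 28. Its transgenic libraries held 10.8, 7.43 and 5.94 FPKM at week 5, 8.85, 7.37 and 13.1 FPKM at week 12, and 10.4, 13.5 and 9.02 FPKM at week 28. The highest transgenic value of any age, 13.5 FPKM, was below the lowest Cck-/- value of any age, 25.5 FPKM. The transgenic mean was 31.0%, 33.6% and 39.1% of the Cck-/- mean, with log2 differences of -1.61, -1.51 and -1.29 (SE 0.19 each). The transgenic change from week 5 to 28 was 0.42 ± 0.19 with a limma adjusted p of 0.0931. Since the gene lies on the X chromosome and libraries differed in Xist, Xist was also entered as a covariate, and the differences were then -1.60, -1.50 and -1.29.

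Fgf7 (chr2:126034658-126091185, plus strand) had the lowest mean level of the 6 per unit of length in every group, and its genotype means lay farther apart at each later age. Its Cck-/- libraries held 4.44, 4.58 and 5.22 FPKM at week 5, 6.76, 6.12 and 5.14 FPKM at week 12, and 5.49, 6.37 and 6.25 FPKM at week 28. Its transgenic libraries held 3.45, 1.11 and 1.46 FPKM at week 5, 1.37, 0.661 and 1.42 FPKM at week 12, and 0.446, 0.564 and 0.543 FPKM at week 28. The narrowest gap between the genotypes among the members was here, at week 5, where transgenic replicate 1 at 3.45 FPKM came within 1.29-fold of the lowest Cck-/- library. The transgenic mean was 42.3%, 19.1% and 8.58% of the Cck-/- mean, with log2 differences of -1.01, -1.72 and -2.21 (SE 0.21 each). With a pseudocount of 0.1 in place of 1, these were -1.36, -2.35 and -3.31. In transgenic cerebellum Fgf7 fell from 2.01 ± 1.26 to 0.518 ± 0.0633 FPKM (SD, n = 3 each) between weeks 5 and 28, a log2 change of -0.91 ± 0.21 (SE, limma adjusted p = 0.00361). Leaving out each library in turn, this change ran from -1.125 to -0.59, with limma adjusted p up to 0.0159. The Cck-/- change was 0.29 ± 0.21 (limma adjusted p = 0.296), with the 3 week 28 libraries above the 3 week 5 libraries.

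**Figure D1:**
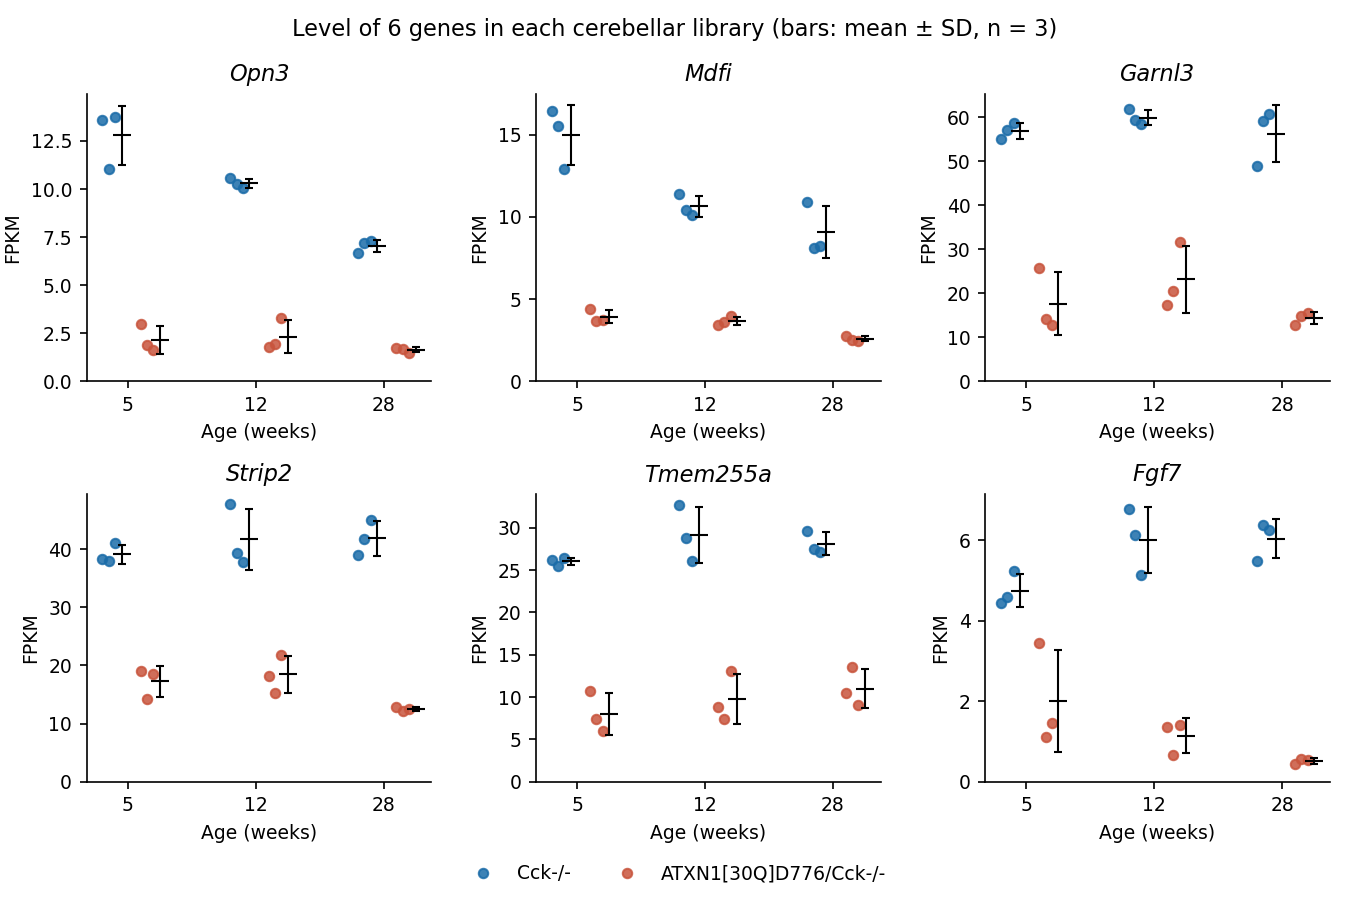
FPKM of each of the 6 genes (panels, linear axes from 0) in every library against age in weeks, blue for Cck-/- and red for ATXN1[30Q]D776/Cck-/-. Points are libraries, and the dash and bar are the mean and SD of 3 libraries. At each age and in each panel the red points lie below the blue ones, and Opn3 and Mdfi also decline with age among the blue points.

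Transgenic and Cck-/- libraries did not overlap for any of the 6 members at week 5, 12 or 28. Over all tested genes, 7.67% were called for genotype at week 5, 1.36% at week 12 and 10.7% at week 28 at an adjusted p under 0.05. These shares count calls and not overlap, which is another measure. The share of all genes without overlap was not computed, and with 3 libraries per group it can be large. Nothing is read from the members' count, since the same contrast chose the members. The members' median log2 difference was -1.65, -1.45 and -1.64 at the 3 ages, beside medians over all tested genes of 0.00034, 0.0023 and 0.0046. At week 5 the order from the deepest decrease was Opn3, Garnl3, Mdfi, Tmem255a, Strip2 and Fgf7. Garnl3, Mdfi and Tmem255a, at -1.70, -1.69 and -1.61, lay within their SEs of each other. The last place of Fgf7 rested on transgenic week 5 replicate 1. Without that library Fgf7 was at 27.1% of its Cck-/- mean in place of 42.3%, with a difference of -1.33, and Strip2 was the shallowest at -1.22. At week 28 Fgf7 came first at -2.21 and Garnl3 next at -1.90, and Tmem255a had the shallowest decrease at -1.29. Between weeks 5 and 28 the log2 difference changed by -1.20 ± 0.29 (SE) for Fgf7 and by -0.52 ± 0.17 for Strip2, which deepened. Part of the Fgf7 change rested on transgenic week 5 replicate 1, without which its week 5 difference was -1.33. For Opn3, whose level in Cck-/- cerebellum fell, the log2 difference changed by 0.53 ± 0.22. For Mdfi, Garnl3 and Tmem255a the changes were 0.21 ± 0.14, -0.20 ± 0.30 and 0.32 ± 0.27. These changes are given without a test because the rule used the genotype contrast at every age.

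Changes with age inside a genotype were not used to choose the members and were tested with limma, with adjustment over all 13487 genes. In Cck-/- cerebellum, 1 member fell between weeks 5 and 12 (Mdfi), beside 11.8% of all genes called in either direction. None of the 6 was called between weeks 12 and 28, beside 9.65% of all genes, and 1 (Opn3, log2 change -0.49) had an unadjusted p under 0.05. Between weeks 5 and 28, 2 fell (Opn3 and Mdfi), beside 33.7% of all genes. In transgenic cerebellum, none was called between weeks 5 and 12 by limma, and 0 had an unadjusted p under 0.05, beside 1.19% of all genes called. Between weeks 12 and 28, 3 fell (Mdfi, Garnl3 and Strip2), beside 23.8% of all genes, and between weeks 5 and 28, 3 fell (Mdfi, Strip2 and Fgf7), beside 36.9%. No member was called higher with age in either genotype. The count of 3 from week 12 to 28 was 1 without transgenic week 12 replicate 3 and 1 without transgenic week 28 replicate 2.

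The 30 genes of the Purkinje cell list give the setting for these decreases. They include Pcp2, Calb1 (a calcium buffer), Car8 (a carbonic anhydrase-related regulator of the IP3 receptor) and Atp2a3 (a calcium pump of the endoplasmic reticulum). In transgenic cerebellum 14 of the 30 were lower at week 5, 15 at week 12 and 28 at week 28, with none higher by limma at any age. Over all tested genes, 7.67%, 1.36% and 10.7% were called in either direction at these ages. The list's median difference was -0.39, -0.57 and -1.13. The rule chose the members for large decreases and left out standard Purkinje cell markers. Their places beside the list therefore follow largely from that choice and are given as a description. All 6 members lay below that median at each age. At week 5, 4 members also lay below the lowest gene of the list, Atp2a3 at -1.36, and at week 12, 5 lay below it, at -1.29. At week 28 none did, as Atp2a3 stood at -2.24 and Fgf7 at -2.21. Courses differed within the list. Pcp2 differed by -0.16, -0.08 and -1.15 at the 3 ages, the last called (limma adjusted p = 0.000769, and 0.0730 in a fit of the compared groups only). Car8 was already lower at week 5, with differences of -1.07, -0.99 and -1.99, each called, and Atp2a3 was called at each age too. The week 12 call of Car8 was lost without transgenic week 12 replicate 2 (adjusted p = 0.0928). In whole cerebellum, fewer Purkinje cells and less RNA per Purkinje cell cannot be told apart, and the cell type that makes each member was not measured.

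**Figure D2:**
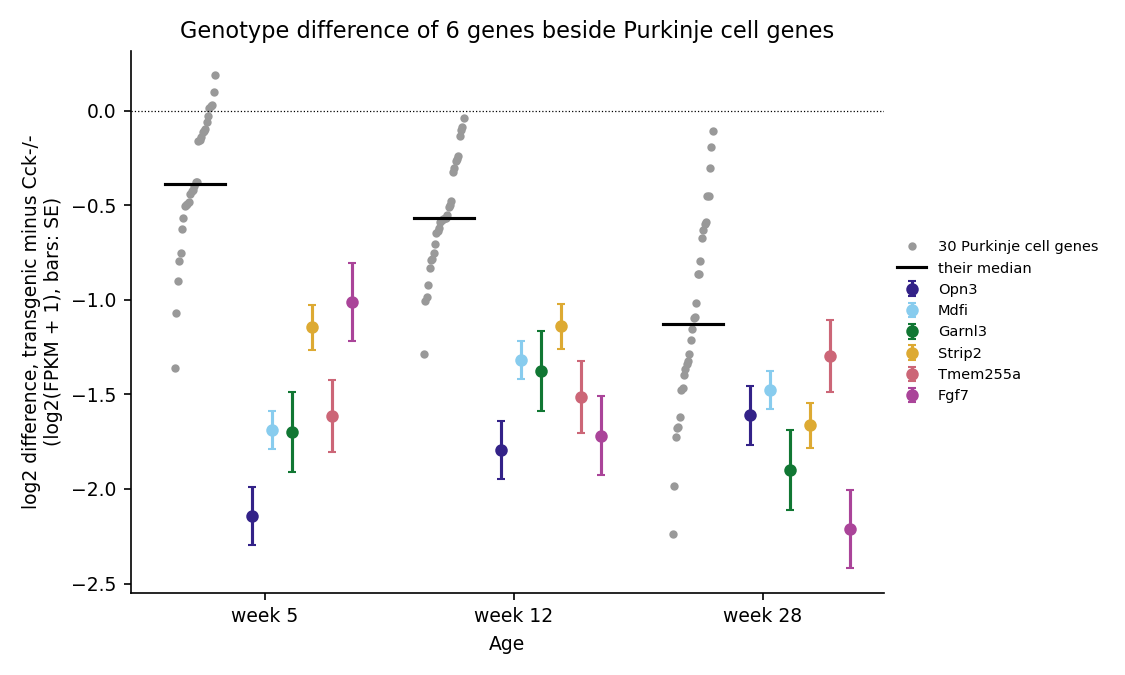
Log2 difference of transgenic minus Cck-/- cerebellum (log2(FPKM + 1)) at each age for the 6 genes (coloured points, bars SE) beside the 30 Purkinje cell genes (grey points, black line their median). The members sit between -2.21 and -1.01 at all 3 ages, while the median of the Purkinje cell genes moves from -0.39 to -1.13 by week 28.

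In some groups the members also varied together between libraries. In transgenic cerebellum, week 5 replicate 1 was the highest of its group for all 6 members, and week 12 replicate 3 was the highest of its group for all 6. The same libraries had the highest mean log2 level of the Purkinje cell list in their groups, 5.68 against 5.52 and 5.47 at week 5, and 5.63 against 5.46 and 5.40 at week 12. In Cck-/- cerebellum, week 12 replicate 1 was highest for all 6 members and had a Purkinje cell mean of 6.12 against 6.01 in both others. At week 28 the order differed. Transgenic replicate 3 had a Purkinje cell mean of 5.18 against 4.80 and 4.6, and Pcp2 at 490 FPKM against 293 and 232 FPKM, but it was highest for 1 of the 6 members (Garnl3) and lowest for 3. Opn3, for instance, was at 1.49 FPKM there against 1.72 and 1.71 FPKM. Cck-/- week 28 replicate 1 had a Purkinje cell mean of 5.97 against 5.93 and 5.94, but was highest for 2 members and lowest for 4. Cck-/- week 5 replicate 3 was highest for 5 members, with a Purkinje cell mean of 5.94 against 5.91 in both others. The part of these library differences in the members' changes was not tested beyond the fits without libraries given above.

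**Figure D3:**
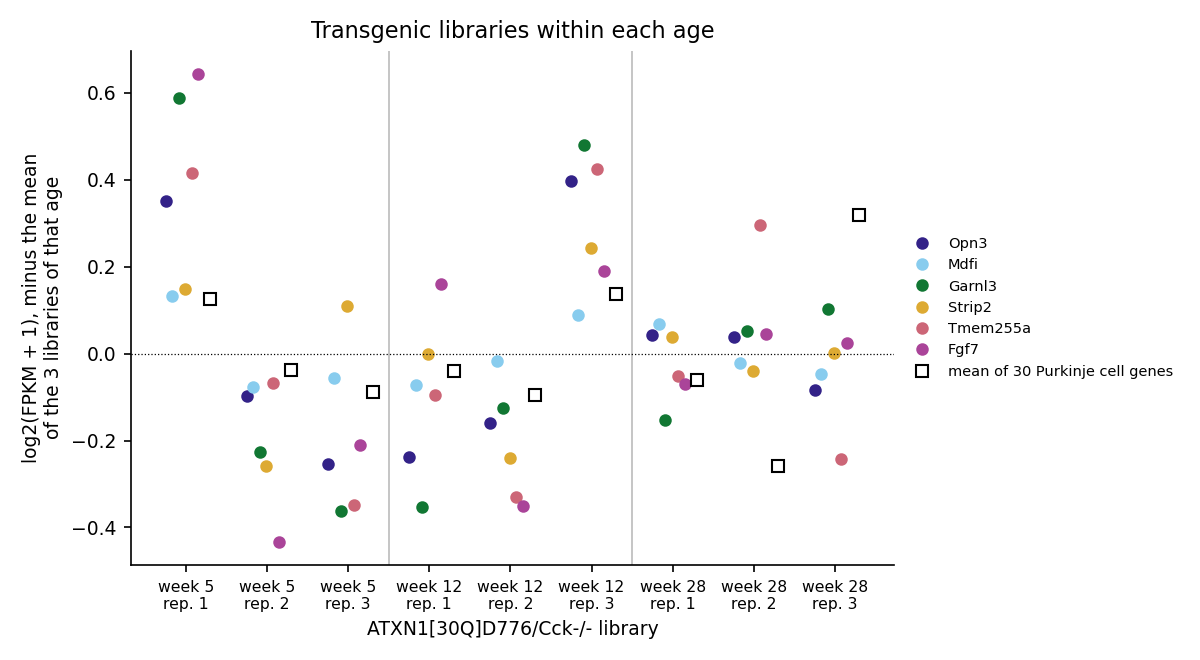
For each of the 9 transgenic libraries, log2(FPKM + 1) minus the mean of the 3 libraries of that age, for the 6 genes (coloured points) and for the mean of 30 Purkinje cell genes (open squares). All 6 genes lie above 0 in week 5 replicate 1 and in week 12 replicate 3, and week 28 replicate 3 has the highest square of its age without the genes following it.

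Markers of the other cell types were compared in the same way. The counts stand beside 7.67%, 1.36% and 10.7% of all tested genes called in either direction at weeks 5, 12 and 28. Of 14 granule cell genes, 1 was called lower at week 5 and 1 higher at week 28. Of 12 inhibitory interneuron genes, 7 were higher at week 5 and 4 were lower at week 28. The 7 include Cck itself (log2 difference 2.19), which both groups are labelled as lacking. Of 15 oligodendrocyte genes, 6 were lower at week 5 and 4 were higher at week 28. Of 14 microglia genes, 8 were higher at week 28, when the list's mean log2 level was 3.41 to 3.93 in Cck-/- and 4.0 to 4.54 in transgenic libraries. Of 13 Bergmann glia and astrocyte genes, 2 were lower at week 5, and 3 were higher and 6 lower at week 28. Among 12 choroid plexus genes none was called at any age, with a median difference of -1.52 at week 5 from the low libraries named above. Of 11 endothelium and blood genes, 1 was higher and 2 lower at week 5, when the list's mean log2 level was 4.41 to 4.65 in Cck-/- and 3.56 to 3.73 in transgenic libraries, with no overlap. Of 13 meninges genes and 5 genes of the cerebellar nuclei and brainstem, none was called by limma at any age. The part of these lists in the members' differences was not tested.

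The genes beside the members on the chromosomes served to see whether a whole stretch had changed. Opn3 overlaps Chml, an escort protein for Rab GTPases, on the same strand, and 461 of its 1913 exonic bases (24.1%) are shared. Chml stood at 3.37 FPKM in Cck-/- and 3.12 FPKM in transgenic cerebellum at week 5, and its differences were -0.09, -0.09 and -0.08, none called by limma. Reads in the shared bases may have been assigned to either gene, so the Opn3 level is uncertain to that extent. Tmem255a shares 474 of 4490 exonic bases (10.6%) with Zbtb33, a methyl-DNA binding repressor on the opposite strand, which differed by -0.03, -0.04 and -0.03 and was not called. Whether the counting used strand is not given in the sources used here.

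Fgf7 lies inside the span of Fam227b, which runs on the opposite strand and shares 0 exonic bases with it. The table gives both, with Galk2 (a galactokinase family enzyme), the same merged locus. Fam227b moved the other way at week 5, at 0.281, 0.281 and 0.395 FPKM in Cck-/- and 1.54, 2.33 and 1.81 FPKM in transgenic libraries. The log2 difference was 1.12 ± 0.11 (SE), beside 0.02 at week 12 and 0.26 at week 28. Only the transgenic week 5 libraries brought Fam227b past the filter, so its differences are given without a test. Its genotype difference changed between weeks 5 and 12 by -1.10 ± 0.15 (SE), which is not tested for the same reason. The part of Fam227b in the Fgf7 values was not tested. Galk2, Cops2 and Dtwd1, beside Fgf7, were not called at any age.

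Of the nearest tested genes on each side of the other members, Fh1, Pld5, Tfeb, Slc2a8, Ralgps1, Ahcyl2, Nrf1, Rnf113a1 and Lamp2 were not called at any age. Foxp4, beside Mdfi and itself on the Purkinje cell list as a transcription factor, was lower at week 28, at 9.45 against 14.6 FPKM (log2 difference -0.59 ± 0.08, limma adjusted p = 0.000229). At weeks 5 and 12 it differed by -0.11 and -0.27 and was not called, while Mdfi was at -1.69 and -1.32. The difference of Foxp4 changed between weeks 5 and 28 by -0.48 ± 0.11 (limma adjusted p = 0.0348), a comparison in which 3.65% of all genes were called.

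**Figure D4:**
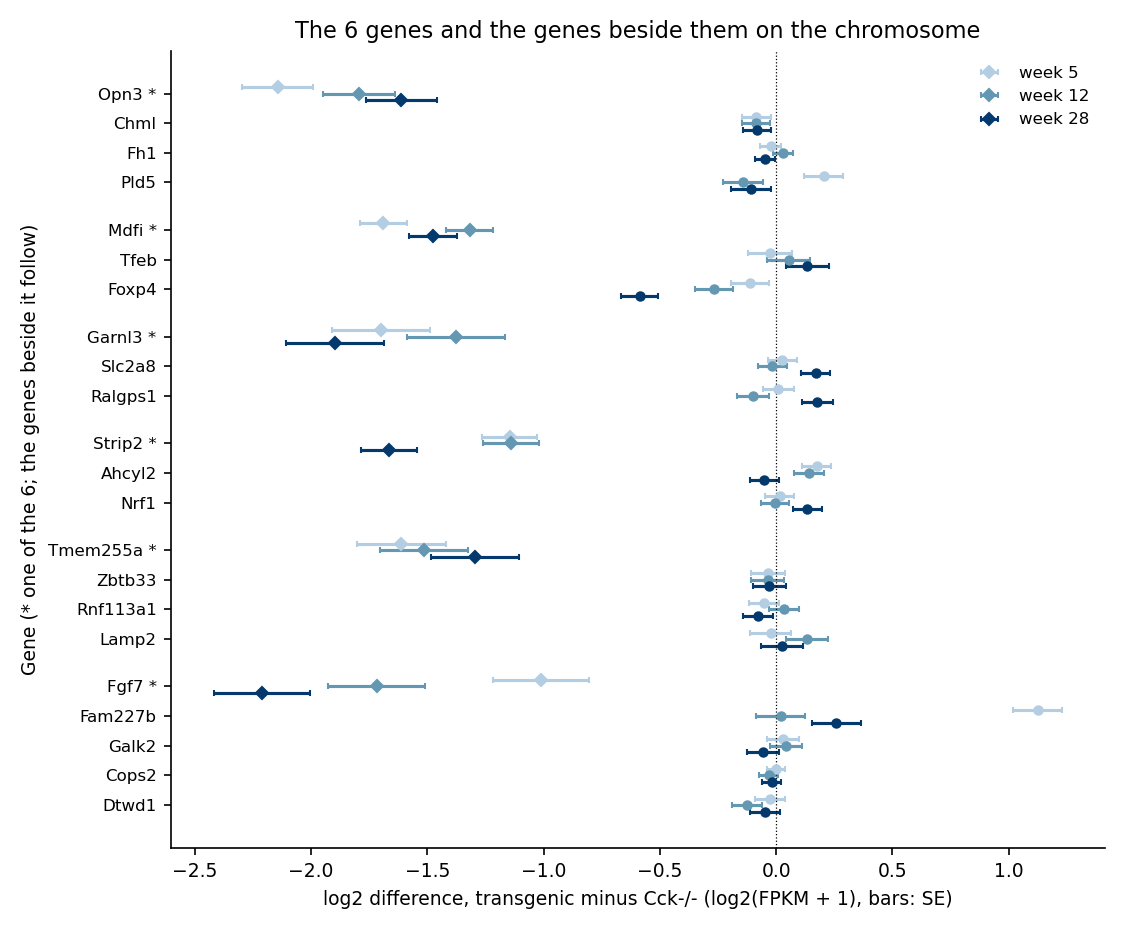
Log2 difference of transgenic minus Cck-/- cerebellum (log2(FPKM + 1), bars SE) for the 6 genes (diamonds, asterisks) and the genes that overlap or flank them (circles), with shades for weeks 5, 12 and 28. The flanking genes stay near 0, with Fam227b at 1.12 at week 5 and Foxp4 at -0.59 at week 28 set apart.

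Of 22 relatives of the members, 12 had a level that could be tested, and at each age at least 10 of these were not called. Mdfic, the relative of Mdfi, was near 3 FPKM and differed by -0.35, 0.33 and -0.11 (SE 0.28 each, not called). Fgf22, a ligand of the Fgf7 subfamily known for excitatory synapses, was at 0.811 to 1.97 FPKM in group means and differed by 0.17, 0.004 and 0.001 (SE 0.18 each, not called). Fgf10 and Fgf3 of the same subfamily, Tmem255b, and among the opsins Opn1sw, Opn1mw, Opn4, Opn5, Rrh and Rgr were too low to test. For Garnl3, the relatives are the GTPase-activating proteins of Rap and Ral. Among them Sipa1l1 was higher by 0.37 at week 5 and by 0.36 at week 28 (SE 0.06, limma adjusted p = 0.00127 and 0.000826). The first was not called without the libraries low in choroid plexus genes (adjusted p = 0.0526), nor the second in a fit of the compared groups only (0.0540). Rap1gap2 was lower at week 28 (-0.27, adjusted p = 0.0212) and Ralgapa2 at week 12 (-0.26, adjusted p = 0.0476), and neither was called without transgenic replicate 2 of its age, at an adjusted p of 0.122 and 0.243. Rap1gap, Ralgapa1, Tsc2, Sipa1, Sipa1l2 and Sipa1l3 were not called.

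Genes of the pathways of the members were read from 7 lists, which hold 173 genes, of which 117 were tested. At week 5, 3 were higher and 6 lower (7.69%), at week 12 none was higher and 3 were lower (2.56%), and at week 28, 11 were higher and 8 lower (16.2%). The shares over all tested genes at these ages were 7.67%, 1.36% and 10.7%. The list medians lay between -0.10 and 0.10 at each age, beside member medians of -1.65, -1.45 and -1.64. The week 28 count was 6 without transgenic week 28 replicate 2, the lowest of the counts that left out a library.

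In the STRIPAK list, 20 genes were tested. Strn3, a striatin scaffold that Strip proteins join, was lower at all 3 ages, at 49 against 58.0 FPKM at week 5, 47.3 against 58.5 FPKM at week 12 and 38.3 against 51.7 FPKM at week 28. Its log2 differences were -0.24, -0.30 and -0.43 (SE 0.05 each, limma adjusted p = 0.00544, 0.00300 and 2.86e-05). Cttnbp2, a cortactin-binding protein of dendritic spines, was lower by 0.38 at week 12 and 0.50 at week 28, and the week 12 call was lost without transgenic week 12 replicate 2 (adjusted p = 0.102). Map4k4, a kinase of the complex, was higher at week 28, at 46.3 against 34.2 FPKM (log2 difference 0.42, adjusted p = 0.000136). No other member of that list was called.

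Among fibroblast growth factors and receptors, 15 of 28 were tested. At week 5 Fgf2 was higher (0.958 against 0.365 FPKM, log2 difference 0.52) and Fgf13, an intracellular family member that binds sodium channels, was lower (15.9 against 19.7 FPKM, -0.29). At week 28 the receptor Fgfr1 was higher (48.7 against 37.0 FPKM, 0.39) and Fgf11 was lower (14.2 against 21.5 FPKM, -0.60). Each of the 4 calls was lost without 1 library, with limma adjusted p up to 0.116, 0.103, 0.123 and 0.0610. Of 17 tested response genes of FGF and ERK signalling, Ccnd1 (cyclin D1) was higher at week 5 and week 28 (0.35 and 0.47). Dusp6, a phosphatase that limits ERK, was lower at week 5 (-0.37), and Etv4, an ETS factor, was lower at week 28 (-0.59). Of these, the week 28 call of Ccnd1 was kept without each library in turn, and the others were lost, with adjusted p up to 0.0922, 0.0638 and 0.0992.

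Of 36 Rap GTPases, GTPase-activating proteins and exchange factors, 1 was higher and 3 were lower at week 5, 1 was lower at week 12, and 5 were higher and 2 lower at week 28. Beside Sipa1l1, they include the GTPases Rap2a (-0.23) and Rap1a (-0.19), lower at week 5. Apbb1ip, an adaptor that binds active Rap1, was at 1.55 against 0.970 FPKM at week 28 (log2 difference 0.37). It is in the week 28 counts of called genes, but it passed the filter only with the transgenic week 28 libraries. No p-value is therefore given for it. Rap1a lost its call without 1 library, with a limma adjusted p of 0.102. Of 20 tested bHLH factors and Mdfi partners, none was called at week 5 or 12. At week 28 Axin2 (0.20) and Tcf4 (0.17) were higher and Id2, an inhibitor of bHLH factors like Mdfi, was lower (117 against 161 FPKM, log2 difference -0.46). Axin2 and Tcf4 lost their calls without transgenic week 28 replicate 2, with limma adjusted p of 0.162 and 0.104, and Id2 kept its call without each library. Of 9 tested opsin and phototransduction genes, Gngt2 was higher (0.42) and Pde6d lower (-0.14) at week 28, and both lost their calls without the same library, at 0.208 and 0.223.

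A ranking by genotype difference uses the contrast that chose the members, so their places in it follow from that choice. Among all 13487 tested genes, the difference averaged over the 3 ages placed Opn3 at rank 3 from the lowest (-1.85), Garnl3 at 4 (-1.66), Fgf7 at 5 (-1.65), Mdfi at 8 (-1.49), Tmem255a at 9 (-1.47) and Strip2 at 15 (-1.32). The other 9 of these 15 genes were not members, and they include Atp2a3 (-1.63), Cep76 (-1.37) and the Purkinje cell gene Car8 (-1.35). Also among them, and named after their values were seen, were Th (-1.39) and Nek2 (-1.37), which were lower at all 3 ages, and the haemoglobin gene Hbb-bs (-1.94) and the choroid plexus gene Ttr (-1.51), which were not called at any age. Without transgenic week 12 replicate 2, neither Th nor Nek2 was called at week 12 (limma adjusted p = 0.109 and 0.202), and Th was not called at week 5 without Cck-/- week 5 replicate 1 (0.0935). The remaining 2 are clone-named or predicted genes. The genes that follow Strip2 were Fam117a (-1.31), Slc5a1, a sodium and glucose cotransporter (-1.30), Dynlt1b (-1.21), Doc2b, a calcium sensor of vesicle release (-1.18), and Nrk, a kinase (-1.16). Fam117a, just outside, stood at 6.92 against 2.65 FPKM at week 5 and 9.36 against 2.66 FPKM at week 28, close to the share of Strip2, just inside. Dynlt1b was at or near 0 FPKM in some libraries of both genotypes and was not called at any age.

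Likeness of pattern was measured as the root mean square (RMS) difference of centred log2(FPKM + 1) values over the 18 libraries, where 0 is the same pattern. It is a description over libraries that share the genotype contrast. Strip2 was nearest to Nrk (0.16), Cep72, a centrosome protein (0.16), and Slc5a1 (0.16), while the median over all tested genes was 0.70. Garnl3 was nearest to Slc5a1 (0.21), and Tmem255a to Fam117a (0.27). Opn3 and Mdfi were each other's nearest gene (0.27). Fgf7 was nearest to Cep76, a centrosome protein (0.28), followed by Strip2 (0.29) and Atp2a3 (0.30). Cep76 stood at 45.4 against 21.7 FPKM at week 5 and 42.6 against 11.2 FPKM at week 28, so that, like Fgf7 and Strip2, its difference was larger at week 28 (-1.85) than at week 5 (-1.05). Between members the RMS difference ran from 0.27 for Opn3 and Mdfi to 0.43 for Tmem255a and Fgf7.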

How the data were processed

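RNA from dissected FVB mouse cerebellum was extracted with TRIzol and RNeasy columns and made into TruSeq libraries, per the labels' protocols. Per the submitters' processing notes, the authors used TopHat2 2.0.11, Cufflinks 2.2.1 and build mm10, and the deposited values are FPKM for each gene symbol. Not given in the sources used here are the annotation, read filters, strand setting, normalization across libraries and read counts, so no counting intervals were computed.

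The 18 libraries were grouped by labelled genotype and age, 3 in each of 6 groups. Values were taken as log2(FPKM + 1), and the 13487 of 22783 genes that reached 1 FPKM in 3 or more libraries were fitted with limma 3.58.1 in R 4.3.3 (mean-variance trend, a mean per group, 12 residual degrees of freedom). P-values are two-sided, adjusted by Benjamini and Hochberg over all tested genes of a comparison, and called under 0.05. The fit was tested on simulated data. The 6 members and all gene lists were chosen with earlier results of these data known. Named beside the members are their relatives, overlapping and flanking genes, the 3 genes nearest in pattern to each, up to 3 called genes per pathway list and age, the 5 genes after the members in the ranking, and Pcp2, Calb1, Car8 and Cck. Clone-named and predicted genes are not named, some that the rule gives are summarised, and some are not reported here. Positions come from GENCODE M21 (GRCm38) and promoters from RefSeq (GRCm38.p6).

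Alternatives were a pseudocount of 0.1, dropping the filter, a minimum mean of 5 FPKM (which drops Fgf7), median-ratio rescaling, quantile normalization, library weights, replicate numbers as blocks, Xist as a covariate, fitting only the groups compared, and dropping each library in turn. Fits that drop the 3 libraries poor in choroid plexus genes, or the 3 holding Xist together with Y-linked transcripts, were added after seeing the data. Python 3.11.15, pandas 2.3.3, numpy 2.4.6 and matplotlib 3.10.9 were used for tables and figures.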

Additional observations from a re-analysis of the deposited data

Results flagged for a closer look

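The difference between transgenic and Cck-/- cerebellum changed with age for several genes named beside the members, by a test of the change itself (limma, adjusted over 13487 genes). For Cck it changed by -2.10 from week 5 to 12 (limma adjusted p = 0.00640) and by -1.83 from week 5 to 28 (0.0105). For Fam227b, the gene that overlaps Fgf7 on the other strand, it changed by -1.10 and -0.87 over the same intervals. The Fam227b changes are given without a test, since only transgenic week 5 libraries brought that gene past the filter. Both genes were higher in transgenic libraries at week 5.

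From week 5 to 28 the differences of some named Purkinje cell genes deepened, by -1.02 for Calb1 (limma adjusted p = 0.0296), -1.0 for Pcp2 (0.0454), -0.93 for Doc2b (0.0261), -0.88 for Atp2a3 (0.0430) and -0.48 for Foxp4 (0.0348). The change of Car8, from -1.07 at week 5 to -1.99 at week 28, was not called. Only named genes were screened, so no count over the whole Purkinje cell list is given. Cep72 changed by -0.66, given without a test, since it was named for its likeness to Strip2 over the same libraries. Of the pathway genes, Cttnbp2 changed by -0.42 (limma adjusted p = 0.0379), Map4k4 by 0.56 (0.00215) and the GTPase Rap2a by 0.26 (0.0198). These pathway genes, Atp2a3 and Doc2b were named through their genotype differences, so their p-values are not independent of that choice.

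Among the members, the 3 week 28 libraries lay above the 3 week 5 libraries for Fgf7 in Cck-/- cerebellum and below them in transgenic cerebellum, and the genotype difference moved by -1.20 between these ages. Without transgenic week 5 replicate 1, the week 5 difference was -1.33 in place of -1.01, so part of the move rested on that library. The move was not tested, since the genotype contrast chose the gene.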

How the results depend on the processing

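Alternatives were run for the members' differences, their called age changes, the counts, and the called genotype differences of the other named genes, and none of these reversed its direction. Values that were not called, list medians and the tests of a change of the genotype difference with age were not recomputed. With the replicate block, the members' median differences were -1.65, -1.45 and -1.64, the members called from week 12 to 28 in transgenic cerebellum were 2 in place of 3 because Garnl3 had an adjusted p of 0.0619, and the pathway counts at weeks 5, 12 and 28 were 8, 2 and 19. Replicate numbers did not pair the libraries, since correlations of same-numbered libraries of different groups ran from -0.39 to 0.44 with a median of -0.02, and 3 of 18 libraries lay closest to their own number. The members' median difference was -1.86 at week 28 with a pseudocount of 0.1 and -1.85 at week 5 without the 3 libraries poor in choroid plexus genes. In Cck-/- cerebellum, library weights gave 2 members called from week 5 to 12 (1 before) and 2 from week 12 to 28 (0 before). Over all tested genes, library weights gave 29.0% and 31.5% called for these intervals, in place of 11.8% and 9.65%. The members called from week 12 to 28 were 1 with the compared groups only, 1 without the choroid-poor libraries and 1 without those with both Xist and Y-linked transcripts. These 3 settings called 1.04%, 8.48% and 7.86% of all tested genes there. Library weights raised the pathway counts from 9, 3 and 19 to 32, 6 and 60. The shares of all tested genes called rose too, from 7.67%, 1.36% and 10.7% to 23.1%, 2.39% and 43.3%. The week 5 count was 3 without the choroid-poor libraries, and the week 28 count was 5 with the compared groups only and 8 without those with both Xist and Y-linked transcripts. In the same order, 2.27%, 2.50% and 4.94% of all tested genes were called. The cause of these shifts was not tested. Garnl3 from week 12 to 28 was also not called with no filter (adjusted p = 0.0733), Xist as a covariate (0.0575), the compared groups only (0.0885) or without those holding Xist together with Y-linked transcripts (0.0779). Without those libraries Mdfi from week 12 to 28 (0.0721) and Strip2 from week 5 to 28 (0.0633), both transgenic, were not called. Leaving out each library in turn, the members' medians ran from -1.79 to -1.48 at week 5, from -1.67 to -1.33 at week 12 and from -1.68 to -1.60 at week 28. The week 5 median of -1.48 came without transgenic week 5 replicate 3. The members called ran from 0 to 1, 0 to 1 and 2 to 2 in Cck-/- cerebellum (weeks 5 to 12, 12 to 28 and 5 to 28), and from 0 to 0, 1 to 4 and 2 to 3 in transgenic cerebellum. The pathway counts ran from 4 to 10 at week 5, from 1 to 4 at week 12 and from 6 to 22 at week 28. Week 5 gave 4 without Cck-/- replicate 1 or 3, and 5 without Cck-/- replicate 2 or transgenic replicate 2 or 3. Week 12 gave 1 without Cck-/- replicate 1 or 3 or transgenic replicate 2, and week 28 gave 9 without Cck-/- replicate 2 or transgenic replicate 1. With no read counts, the precision of low values such as those of Fgf7 in transgenic cerebellum is known only from the spread of libraries.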
